A study of Mus musculus with 8 samples.

Results

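Globins carry oxygen in red blood cells, and their transcripts in a piece of brain are used here as a measure of how much blood a dissection held. The 9 symbols followed here were Hba-a1, Hba-a2, Hbb-b1, Hbb-b2, Hbb-bs, Hbb-bt, Alas2, Alas1 and Slc4a1, and the deposited table of 23116 genes held rows for 8 of them. Of these, 7 were found under their current symbol, and Hbb-bs was found as Beta-s, an older symbol that RefSeq lists for it. Hbb-bt was not analysed here, and Hbb-b1 was listed at 0 in all 8 libraries, so 7 rows carried values. The genes were chosen by name with earlier results of these data known, and the libraries were grouped by their labels and by the measured level of Mbp.

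The tissue was the dLGN, the dorsal lateral geniculate nucleus, which passes retinal signals on to the visual cortex, taken by microdissection from male and female mice on postnatal day 27 under standard housing, with C57BL/6J given as the source. RNA came from 4 mice labelled Fn14 WT and 4 littermates labelled Fn14 KO, 1 library per mouse, after ribosomal RNA depletion. Fn14 is the receptor for the cytokine TWEAK and is encoded by Tnfrsf12a. The sources used here give neither the removed part of the gene nor the sex and litter of each mouse. Libraries carry the names WT 1 to WT 4 and KO 1 to KO 4 after their labels.

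Adult hemoglobin is a tetramer of alpha chains, from the Hba genes, and beta chains, from the Hbb genes, each holding a heme. Heme is built from glycine and succinyl-CoA by a chain of enzymes that starts with aminolevulinate synthase, made by Alas2 in developing red cells and by Alas1 in most other cells. Slc4a1 encodes band 3, the anion exchanger of the red cell membrane. Mature mouse red cells have no nucleus, and young ones still hold globin mRNA. In mice, globin transcripts have also been described at low levels in neurons and glia, so a globin value in brain RNA is not a count of blood cells.

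The paired globin genes are nearly the same sequence, which limits what each row can say. In the GENCODE transcripts on GRCm38, the 429 coding bases of Hba-a1 (chromosome 11, 32283511 to 32284465, plus strand) and Hba-a2 (chromosome 11, 32296489 to 32297298, plus strand) differed at 1 position, base 381 of the coding sequence. The 444 coding bases of Hbb-bs (chromosome 7, 103826534 to 103828096, minus strand) and Hbb-bt (chromosome 7, 103812524 to 103813996, minus strand) also differed at 1 position, base 417. The coding stretches around these positions are shown because reads outside them cannot be assigned within the coding sequence. The capital marks the base that differs within each pair, and positions count from the first base of the start codon.
Hba-a1, coding bases 351 to 411: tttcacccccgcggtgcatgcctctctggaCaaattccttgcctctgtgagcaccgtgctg
Hba-a2, coding bases 351 to 411: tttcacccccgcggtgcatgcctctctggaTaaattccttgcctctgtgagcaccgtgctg
Hbb-bs, coding bases 387 to 444: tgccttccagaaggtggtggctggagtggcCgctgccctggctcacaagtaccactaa
Hbb-bt, coding bases 387 to 444: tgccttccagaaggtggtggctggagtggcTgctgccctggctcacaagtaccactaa
After the stop codon, Hba-a1 and Hba-a2 had 0 differences over the 74 bases that both annotated transcripts cover, while Hbb-bs and Hbb-bt differed, without gaps, at 85 of 131. Hbb-b1 and Hbb-b2 are the beta globin genes of another mouse haplotype and are not in the GENCODE set for C57BL/6J. The sources used here do not say how the authors' counting divided reads among these copies, so the split between Hba-a1 and Hba-a2, and between Beta-s, Hbb-b1 and Hbb-b2, is uncertain, and sums are given beside single rows.

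The start regions of the globin genes share short elements, shown here because the alpha and beta rows are compared throughout. Each line gives 120 bases ending just before the RefSeq start (GRCm38.p6), with capitals for any of 4 motifs on either strand. These were the CACCC box, the CCAAT box, the GATA motif and the TATA-like ATAAA. In the Alas2 window, GATA and ATAAA on the opposite strand overlap, and the CACCC box occurs as 3 adjoining copies on the opposite strand.
Hba-a1, chr11:32283552-32283671, plus strand: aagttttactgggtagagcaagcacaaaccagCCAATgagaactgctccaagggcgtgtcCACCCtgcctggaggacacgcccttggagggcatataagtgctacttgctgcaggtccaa
Hbb-bs, chr7:103827929-103828048, minus strand: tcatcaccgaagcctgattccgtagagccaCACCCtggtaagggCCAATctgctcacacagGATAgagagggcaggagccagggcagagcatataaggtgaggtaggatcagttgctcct
Alas2, chrX:150547297-150547416, plus strand: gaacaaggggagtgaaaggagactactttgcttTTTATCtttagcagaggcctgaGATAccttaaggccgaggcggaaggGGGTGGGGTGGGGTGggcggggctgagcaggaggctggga
The Hba-a2 window, offset by 3 bases, had 0 differences from that of Hba-a1. CACCC, bound by erythroid Krüppel-like factors, was in all 3 windows shown and in 31.7% of 32851 RefSeq promoter windows of the same length. CCAAT was in the windows of Hba-a1 and Hbb-bs and in 21.3% of all windows. GATA, the core of the site of GATA factors, was in those of Hbb-bs and Alas2 and in 29.5% of all. ATAAA was in that of Alas2, on the opposite strand 87 bases before the start, and in 20.2% of all. The windows of Hba-a1 and Hbb-bs hold the letters ATATAA, which the ATAAA motif does not match. A missing ATAAA there thus does not mean that a TATA-like element is absent. All marked stretches are matches of letters and not measured sites.

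The values are TPM (a length-corrected share of each library's transcripts), and the authors' read depth is unknown. The Mbp level, for a main protein of myelin, was 11153 TPM in WT 1 and 13566 TPM in WT 2, with no other library outside 34.4 to 51.3 TPM, so the limit of 1000 TPM that defines the split lies far from every library. WT 1 and WT 2 lay above all other 6 libraries for 22.5% and below all of them for 40.5% of the 15967 genes that averaged 1 TPM or more. The sources used here give postnatal day 27 for all libraries, so no stated age goes with this split, and its cause was not tested. Tnfrsf12a was at 4.78, 5.48, 3.67 and 0.82 TPM in WT 1 to WT 4 and at 2.95, 1.12, 1.32 and 1.86 TPM in KO 1 to KO 4, so the library labelled WT 4 lay below every KO library, against its label, and WT 1 to WT 3 lay above every KO library. The X-inactivation transcript Xist was at 326 to 422 TPM in WT 3, KO 1 and KO 3, and the Y-linked Ddx3y ranged from 37.9 to 61.6 TPM across KO 2, KO 4, WT 1 and WT 2. Low values of both were found for the library labelled WT 4, with 1.12 TPM of Xist and 0.84 TPM of Ddx3y. The myelin gene Cldn11 split as Mbp did, and the pan-neuronal Tubb3, Stmn2 and Snap25 split too, with the first pair lower and Snap25 higher in WT 1 and WT 2. Relay neuron markers were present in every library (Slc17a6 from 168 to 441 TPM), Calb2 ran from 23.9 to 330 TPM, and Tcf7l2, a thalamic transcription factor, was lowest in WT 3 at 43.4 TPM against 250 to 1074 TPM elsewhere.

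By its mean over the libraries, Hbb-bs was the most abundant of these transcripts. The Hbb-bs row (Beta-s) stood at 877, 1171, 812 and 582 TPM in WT 1 to WT 3 and the library labelled WT 4, and at 3829, 960, 521 and 591 TPM in KO 1 to KO 4. KO 1 was the highest library, 3.27 times the next, and the other 3 KO libraries lay within or just below the WT range. Its mean over 8 libraries ranked 54th of all genes. The Hbb-b2 row stood at 143, 175, 157 and 115 TPM in the 4 WT libraries and at 807, 209, 97.5 and 130 TPM in KO 1 to KO 4. It followed Hbb-bs closely, and the ratio of Hbb-bs to Hbb-b2 was between 4.56 and 6.69 in every library.

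Alpha globin was split over its 2 rows in a way that differed between libraries. Hba-a1 was at 493, 496, 154 and 206 TPM in the 4 WT libraries and at 1414, 500, 146 and 126 TPM in KO 1 to KO 4. Hba-a2 was at 253, 384, 826 and 467 TPM in WT and at 1947, 598, 503 and 598 TPM in KO. KO 1 was again the highest for both, by 2.83 times for Hba-a1 and 2.36 times for Hba-a2 over the next library. Without KO 1 the order of the libraries was not the same for the paired genes, since WT 1 and WT 2 were low for Hba-a2 and near the top for Hba-a1. The Hba-a1 share of the alpha sum was 66.1% in WT 1 and 56.4% in WT 2. It was 15.7% for WT 3, 30.6% for the library labelled WT 4, and 42.1%, 45.5%, 22.4% and 17.4% in KO 1 to KO 4. With a single coding base between these genes, the part of read assignment in this shift was not tested.

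**Figure D1:**
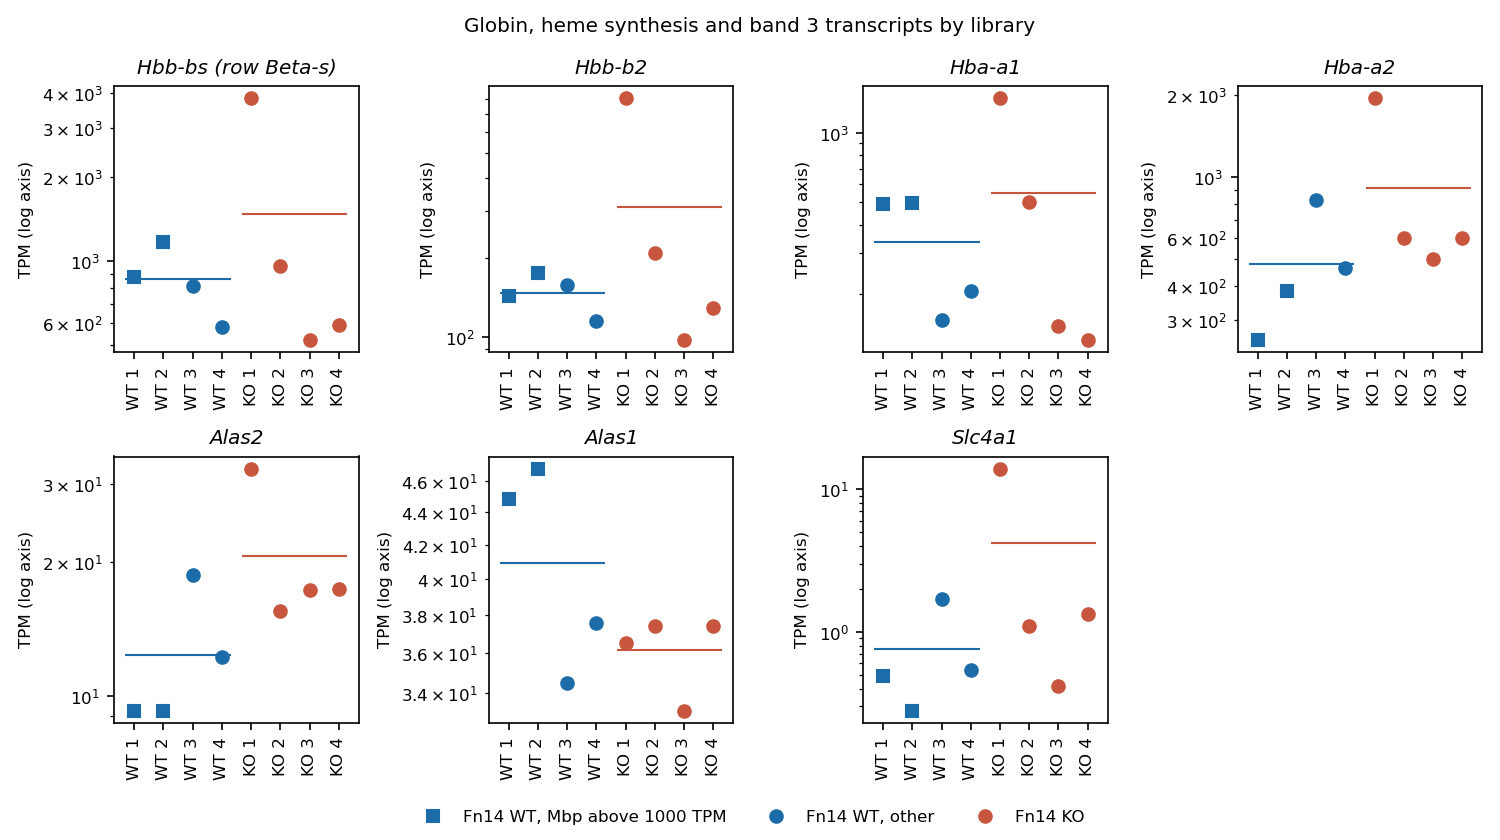
TPM (log axes, scaled separately) of the 7 genes with values in each of the 8 libraries, with squares for the libraries of Mbp above 1000 TPM and horizontal lines for the mean of each group of 4. KO 1 is the top point for all genes but Alas1, where WT 1 and WT 2 are highest at 44.8 and 46.8 TPM.

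Summed over the 4 adult globin rows, globin was 1766, 2225, 1950 and 1370 TPM in the WT libraries, and 7997, 2267, 1267 and 1444 TPM in KO 1 to KO 4. KO 1 therefore held 0.802% of its summed TPM in globin, and the other 7 libraries 0.127% to 0.230%. Outside KO 1 the sum varied 1.79-fold from the lowest to the highest library, and the WT and KO libraries were interleaved. WT 1 and WT 2, with 0.182% and 0.230%, were on either side of KO 2 at 0.227% and WT 3 at 0.196%, so the libraries that stood apart in Mbp did not stand apart in globin. The mean was 1828 ± 359 TPM over WT libraries and 3244 ± 3199 TPM over KO libraries (SD, n = 4 per group), and 1659 ± 534 TPM over the 3 KO libraries other than KO 1.

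The alpha and beta sums were of similar size. From WT 1 to the library labelled WT 4, the alpha sum divided by the beta sum was 0.731, 0.654, 1.01 and 0.965, and from KO 1 to KO 4 it was 0.725, 0.940, 1.05 and 1.00. WT 1, WT 2 and KO 1 thus had the lowest ratios, and the other 5 libraries lay between 0.940 and 1.05. In bulk RNA, fewer red cells and less RNA per cell cannot be told apart.

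**Figure D2:**
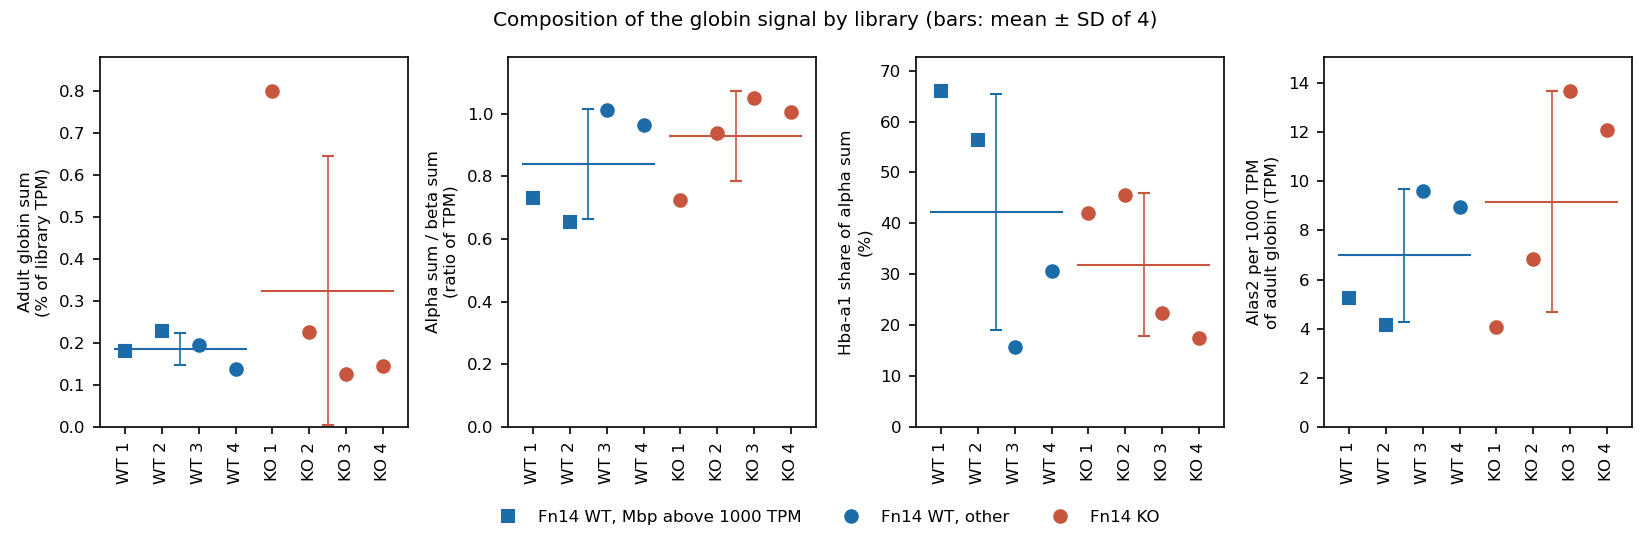
Adult globin sum as a percentage of the library's TPM, ratio of the alpha to the beta sum, Hba-a1 share of the alpha sum in percent, and Alas2 TPM per 1000 TPM of adult globin, by library, with the mean ± SD of each group of 4. KO 1 stands out in the first panel at 0.802%, while WT 1 and WT 2 stand out in the third at 66.1% and 56.4%.

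Alas2, the first enzyme of heme synthesis in red cell precursors (chromosome X, 150547375 to 150570638, plus strand), did not follow globin in all libraries. It was at 9.26, 9.25, 18.7 and 12.3 TPM in the 4 WT libraries and at 32.5, 15.5, 17.4 and 17.5 TPM in KO 1 to KO 4. KO 1 was the highest, and WT 1 and WT 2 were below all other 6 libraries although their globin sum was not. Of all tested genes, 40.5% likewise had WT 1 and WT 2 below the other 6. Of the adult globin rows, Hba-a2 alone was also lowest in WT 1 and WT 2, at 253 and 384 TPM against at least 467 TPM. Per 1000 TPM of adult globin, Alas2 came to 5.24 TPM for WT 1, 4.16 TPM for WT 2 and 4.07 TPM for KO 1, and to 6.83 to 13.7 TPM for the remaining 5. Its correlation with Hbb-bs on the log scale was 0.51 over the 8 libraries, 0.87 over the 6 of low Mbp and −0.54 over the 7 without KO 1. With Hba-a2 the same values were 0.95, 0.95 and 0.88, and with Slc4a1 they were 0.86, 0.93 and 0.73. These correlations are descriptions. Without KO 1 the sign turned for Hbb-bs, Hbb-b2 (−0.20) and Hba-a1 (−0.76) and held for Hba-a2 and Slc4a1.

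Alas1, the form of the enzyme used by most tissues (chromosome 9, 106233455 to 106248654, minus strand), varied least. It was at 44.8, 46.8, 34.5 and 37.6 TPM in the 4 WT libraries and at 36.5, 37.4, 33.1 and 37.4 TPM in KO 1 to KO 4. Here KO 1 was unremarkable, and WT 1 and WT 2 lay above all others, as they did for 22.5% of all tested genes. The highest library was 1.41 times the lowest, against 3.52 times for Alas2, 7.35 times for Hbb-bs and 49.7 times for Slc4a1. Divided by Alas2, Alas1 gave 4.84, 5.06, 1.84 and 3.06 from WT 1 to the library labelled WT 4, and 1.12 to 2.42 over the KO libraries.

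Slc4a1, the band 3 gene (chromosome 11, 102348824 to 102366203, minus strand), was near the lower limit of the table outside KO 1. It was at 0.49, 0.28, 1.70 and 0.54 TPM in the 4 WT libraries and at 13.9, 1.09, 0.42 and 1.33 TPM in KO 1 to KO 4. KO 1 was 8.18 times the next library, WT 3. Of the 7 genes with values, 6 were therefore highest in KO 1, where 15.7% of the 20551 genes listed above 0 anywhere were highest in that library. KO 1 was singled out after its values were seen.

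Many of the other red cell and erythroid genes, but not all, were also highest in KO 1. Of 24 genes of this list, 23 had a row, and 14 of the 23 were highest in KO 1 (60.9%, against 15.7% of all genes). Of the 17 with a mean of at least 1 TPM, 8 were. In KO 1, 22 of the 23 reached 1 TPM, and in the other libraries 11 to 16 did. The members of highest mean were Bpgm, which makes 2,3-bisphosphoglycerate, Ube2l6 and Xpo7, and all of them are also expressed outside red cells. They did not stand out in KO 1, with Bpgm at 53.2 TPM there and 54.1 to 82.9 TPM elsewhere. The genes named next, up to Car1, were picked with their values in view. Ank1 was lowest in KO 1, at 20.9 TPM against 23.6 to 61.0 TPM elsewhere. Epb42 (row Epb4.2) and Sptb (row Spnb1) were highest in KO 3, at 8.56 and 40.3 TPM against 8.24 and 30.5 TPM in KO 1. Rhd, for a Rhesus blood group protein, was at 8.69 TPM in KO 1 and at most 1.01 TPM in the other 7, and Rhag, for its partner, at 6.11 TPM against at most 1.42 TPM. Hemgn, for the erythroid nuclear protein hemogen, was at 7.15 TPM and listed at 0 in all other libraries.

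Genes that act before the red cell is mature were also present in KO 1. Gata1, the transcription factor that drives erythroid genes, was at 4.17 TPM there and at most 0.35 TPM elsewhere. Klf1, the erythroid Krüppel-like factor, was at 6.05 TPM against at most 2.64 TPM, and Nfe2 at 4.44 TPM against at most 0.98 TPM. Kel, for a blood group protein of the red cell surface, was at 3.04 TPM against at most 0.14 TPM. Aqp1, a water channel of red cells that is also abundant in choroid plexus, was at 13.4 TPM against at most 2.52 TPM. Tal1, another erythroid regulator that is also active in neurons of the midbrain and thalamus, went another way, with 5.27 TPM in KO 1 but 41.9 TPM in KO 3, and with 25.4 TPM in the library labelled WT 4. Car1, carbonic anhydrase 1, was at 0.53 TPM in KO 1 and at most 0.36 TPM elsewhere.

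**Figure D3:**
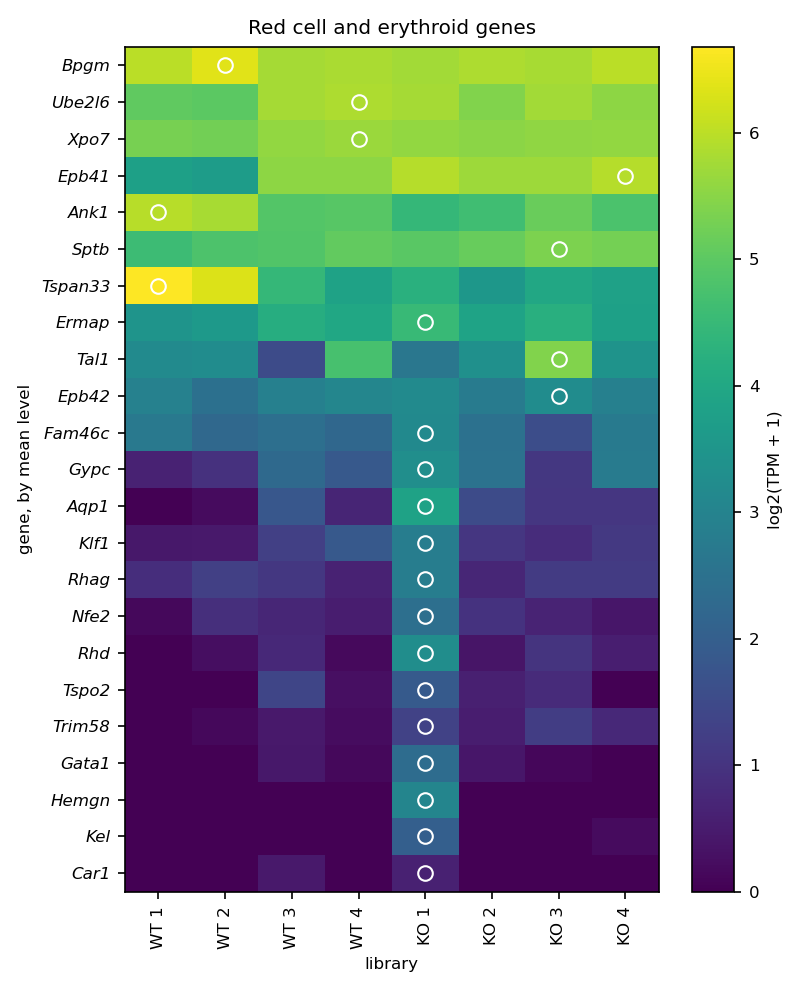
Levels of the 23 red cell and erythroid genes with a row, as log2(TPM + 1) by colour, with genes ordered by mean and a white circle on the highest library of each gene. Of the 23 circles, 14 fall on KO 1, mostly in the lower rows where the other libraries are near 0.

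KO 1 also differed in markers of tissue outside the dLGN. Ttr, for the transthyretin that choroid plexus secretes, reached 404 TPM in KO 1 and 0.24 to 106 TPM in the others. Neurod6, of cortical and hippocampal neurons, is in none of the lists and was picked with its values in view. It reached 140 TPM in KO 1 against at most 21.3 TPM elsewhere. Its groups did not overlap, at 0 to 7.42 TPM in WT and 14.4 to 140 TPM in KO (limma adjusted p = 0.429). Of all tested genes, 3.34% had no overlap. The choroid plexus list, 7 genes with a row, summed to 461 TPM in KO 1 and to between 25.3 and 163 TPM in the other 7, and Ttr made up most of the KO 1 sum. Without Ttr the sum was 57.2 TPM in KO 1, 56.1 TPM in KO 2 and 23.5 to 48.0 TPM in the rest. The next genes by mean were not highest in KO 1, since Otx2 was at 25.6 TPM there and 34.1 TPM in KO 2, and Prlr at 8.90 TPM there and 15.2 TPM in KO 3. Of the 7 genes, 3 were highest in KO 1, and all 7 were above 0 in every library but WT 1, where Kcne2 was listed at 0. The part of these markers in the globin values was not tested.

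Most genes in the lists of other blood cells averaged under 1 TPM. Of the 11 neutrophil genes, Cxcr2 alone had a mean of at least 1 TPM, at 97.2 to 171 TPM. Every other gene of this list, such as S100a8, S100a9, Ngp and Mpo, was listed at 0 in between 1 and 7 of the libraries. S100a8 was at 5.67 TPM and Lcn2 at 2.61 TPM in KO 1, and all others were below 2 TPM in every library. Of the 10 platelet genes, 4 were tested, with Gp1bb highest at 26.4 to 58.0 TPM, followed by Pf4 at 0.25 to 9.44 TPM and Itga2b at 0.21 to 3.17 TPM. Of 10 lymphocyte genes with a row, Lck and Cd3d reached a mean of 1 TPM, and the T cell gene Cd3g was listed at 0 throughout. Neutrophil sums ran from 97.4 to 173 TPM in WT and 124 to 161 TPM in KO, almost all of it Cxcr2. These sums thus follow Cxcr2 alone and are not read as a level of neutrophils. KO 1 was the highest library for 4 of the 11 neutrophil genes (36.4%) and 3 of the 10 platelet genes (30%). It was highest for 1 of the 9 lymphocyte genes above 0 (11.1%), where 15.7% of all genes were highest in KO 1.

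Vessel wall genes did not share the KO 1 pattern. Brain endothelial genes, 15 with a row, summed to 332 to 395 TPM in WT and 345 to 377 TPM in KO, with 357 TPM in KO 1. Cldn5, of endothelial tight junctions, was at 43.1, 63.3, 82.5 and 99.3 TPM in WT and 105, 104, 85.4 and 91.6 TPM in KO. Slco1c1, a thyroid hormone transporter, ran from 33.9 to 51.3 TPM, and Mfsd2a, a lipid transporter of the barrier, was highest in WT 1 and WT 2 at 53.8 and 51.8 TPM against 22.2 to 35.1 TPM. Mural cell genes, 8 with a row, summed to 173 to 233 TPM in WT and 163 to 228 TPM in KO, led by Rgs5, Vtn and Cspg4. KO 1 was the highest library for 2 of the 15 endothelial and 1 of the 8 mural genes, where 15.7% of all genes were.

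The other enzymes of heme synthesis named here were measured in every library, and 3 of them, Urod, Cpox and Fech, were highest in the libraries of high Mbp. In pathway order, Alad was at 26.8 to 41.9 TPM, Uros at 21.0 to 27.4 TPM, Urod at 20.3 to 72.7 TPM, Cpox at 40.5 to 105 TPM, Ppox at 20.5 to 29.9 TPM and Fech, which inserts the iron, at 26.5 to 54.6 TPM. Cpox, which acts inside mitochondria, reached 95.2 TPM in WT 1 and 105 TPM in WT 2 and lay at 40.5 to 58.9 TPM in the other 6, and KO 1 was the highest of the 6 for Urod, Cpox and Fech, at 51.1, 58.9 and 43.1 TPM.

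Several transporters of heme and its precursors were also split by Mbp. Slc25a37, mitoferrin-1, which brings iron into mitochondria, reached 42.4 TPM in WT 1 and 36.9 TPM in WT 2, 13.4 TPM in KO 1 and 5.04 to 8.36 TPM in the other 5. Slc48a1, a heme carrier of lysosomes, reached 152 TPM in WT 1 and 175 TPM in WT 2 and 55.9 to 74.6 TPM in the rest, and Tmem14c, a porphyrin carrier, at 84.5 and 87.9 TPM against 52.2 to 70.8 TPM. Abcb6 and Pgrmc1 went the other way, with Abcb6 at 13.6 and 15.9 TPM against 35.2 to 38.7 TPM and Pgrmc1 at 164 and 199 TPM against 416 to 609 TPM. Slc25a38, the glycine carrier, was at 33.9 to 48.6 TPM, Abcb10 at 26.2 to 50.4 TPM, and the heme exporter gene Flvcr1, listed as Mfsd7b, at 20.4 to 33.7 TPM. Of the 14 genes, WT 1 and WT 2 were both above the other 6 libraries for 6 and both below for 5, where the shares of all tested genes were 22.5% and 40.5%.

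**Figure D4:**
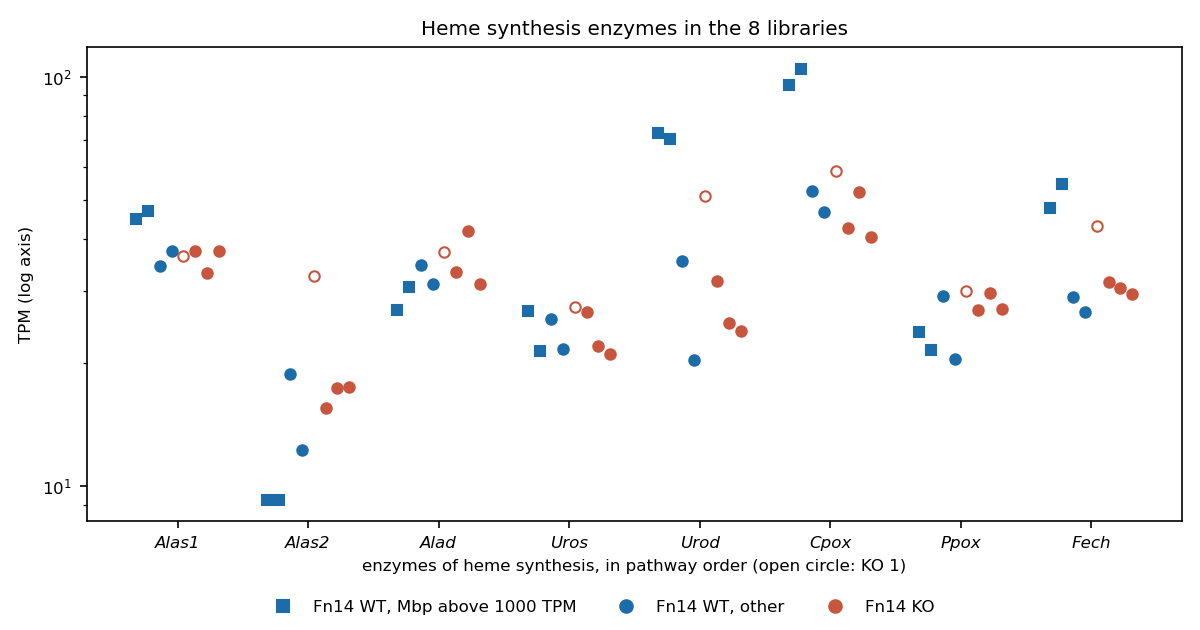
TPM (log axis) of 8 enzymes of heme synthesis in pathway order, with Alas1 and Alas2 as the alternative first step, 1 point per library and an open circle for KO 1. Alas2 is highest in KO 1 at 32.5 TPM, while Urod, Cpox and Fech are highest in WT 1 and WT 2.

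Heme breakdown was low at its inducible step. Hmox1, inducible heme oxygenase, was at 3.09, 5.57, 10.6 and 5.38 TPM in the 4 WT libraries and at 13.2, 9.10, 7.56 and 8.61 TPM in KO 1 to KO 4, so KO 1 was highest and WT 3 lay inside the KO range. Hmox2, the constant form, was at 47.0 to 95.7 TPM and Blvra, biliverdin reductase A, at 12.2 to 21.2 TPM, both highest in WT 1 and WT 2. Blvrb, the other biliverdin reductase, which is abundant in red cells, reached 22.2 TPM in KO 1, 16.3 TPM in WT 1 and 9.23 TPM in WT 2, and 4.56 to 6.41 TPM in the other 5. Hp and Hpx, plasma scavengers made in liver, were below 1 TPM in every library, Cd163, the hemoglobin receptor of macrophages, was at 1.27 to 3.96 TPM, and Lrp1, a receptor that takes up heme bound to hemopexin, was at 189 to 279 TPM.

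Embryonic globins were near absent from the table. Hbb-bh1 and Hbb-bh2 were listed at 0 in all 8 libraries, Hbb-y had values in 3 libraries of at most 0.98 TPM, and Hba-x had 1.09 TPM in KO 1 and 0.37 TPM in WT 3. The theta globin genes differed in pattern. Hbq1a was at 0.91, 0.50, 2.98 and 2.35 TPM in WT and 3.39, 1.99, 4.46 and 2.40 TPM in KO. Hbq1b was listed at 0 in the 4 WT libraries and at 3.30, 0.70, 0.49 and 1.03 TPM in KO 1 to KO 4, without overlap, but its mean was under 1 TPM and it was not tested. Hba-ps4 was not analysed here.

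Among the globins of neurons and other tissues, neuroglobin was highest in KO 1, as blood globin was, and cytoglobin and myoglobin were not. Ngb, neuroglobin, was at 1.18, 4.01, 9.89 and 11.3 TPM in WT and 23.0, 9.45, 10.3 and 14.3 TPM in KO. Cygb, cytoglobin, was at 13.8, 24.7, 26.8 and 26.8 TPM in WT and 29.1, 36.4, 33.4 and 35.1 TPM in KO, and Mb, myoglobin, at 7.17, 8.50, 4.23 and 9.08 TPM in WT and 2.77, 3.98, 2.79 and 1.77 TPM in KO. Neither Cygb nor Mb overlapped between groups, with Cygb higher and Mb lower in KO, where 3.34% of tested genes had no overlap. The limma log2 differences, KO minus WT, were 1.22 (SE 0.56) for Ngb, 0.57 (SE 0.22) for Cygb and −1.09 (SE 0.29) for Mb, each with an adjusted p of 0.429.

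No globin or heme gene of the 7 passed the test between KO and WT. Limma called 0 of the 7 genes and 0 of all 15967 (0%) at an adjusted p under 0.05. At an unadjusted p under 0.05, Alas2 alone of the 7 was below the limit in limma, where 7.66% of all genes, or 1223, were. That count was 304 without WT 1, 305 without WT 2, 4272 without WT 3, 4323 without the library labelled WT 4, 545 without KO 1, 474 without KO 2 and 434 without KO 4. Left out in turn, 6 of the 8 libraries put the unadjusted limma p of Alas2 above the limit, and its range was 0.0127 to 0.126. The groups overlapped for all 7. On the log2(TPM + 1) scale, 6 of the 7 differences lay above 0, with a median of 0.56, where 60.1% of all genes lay above 0 and their median was 0.10. Without KO 1, 3 of the 7 lay above 0 and the median was −0.08.

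Alas2 averaged 12.4 ± 4.47 TPM over the WT mice and 20.7 ± 7.93 TPM over the KO mice (SD, n = 4 per group). Its KO minus WT log2 difference was 0.69 (SE 0.30), with a limma adjusted p of 0.429. It was 0.46 without KO 1, 0.36 without WT 1 and WT 2, and 0.13 without all 3. Hba-a2 had a difference of 0.80 (SE 0.50, adjusted p = 0.432), from 483 ± 246 TPM in WT and 912 ± 692 TPM in KO, which was 0.36 without KO 1 and −0.14 without all 3. Hbb-bs, at 860 ± 242 and 1475 ± 1581 TPM, had a difference of 0.31 (SE 0.60, adjusted p = 0.78) that turned to −0.33 without KO 1. Hbb-b2, at 148 ± 25.3 and 311 ± 334 TPM, had 0.56 (SE 0.59, adjusted p = 0.598) and −0.08 without KO 1. Hba-a1, at 337 ± 183 and 546 ± 603 TPM, had 0.19 (SE 0.79, adjusted p = 0.903) and −0.50 without KO 1. Slc4a1, at 0.753 ± 0.642 and 4.19 ± 6.49 TPM, had 0.93 (SE 0.70, adjusted p = 0.479) and 0.18 without KO 1. Without KO 1, the KO means of Hbb-bs, Hbb-b2 and Hba-a1 lay below the WT means.

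Alas1 was the only member below 0. It averaged 40.9 ± 5.85 TPM over the WT mice and 36.1 ± 2.03 TPM over the KO mice (SD, n = 4 per group), with a log2 difference of −0.17 (SE 0.13) and a limma adjusted p of 0.496. Without WT 1 and WT 2 the difference was 0.003.

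**Figure D5:**
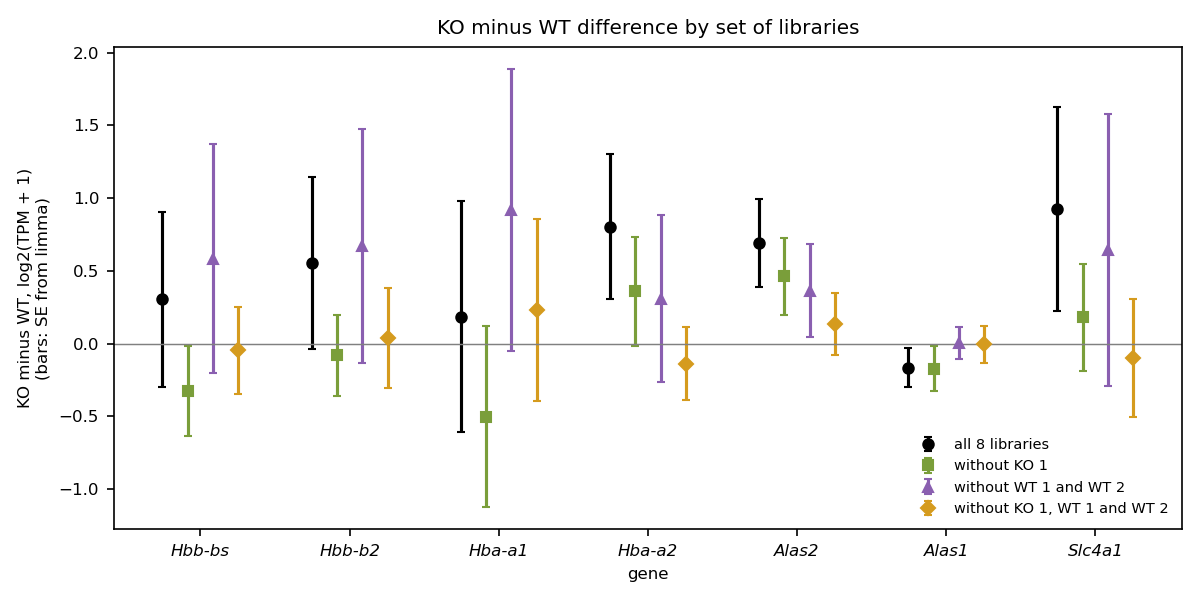
KO minus WT difference on the log2(TPM + 1) scale for the 7 genes, with the SE from limma, in all 8 libraries and without KO 1, without WT 1 and WT 2, or without all 3. Hbb-bs moves from 0.31 to −0.33 without KO 1, and Alas1 from −0.17 to 0.003 without WT 1 and WT 2.

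With 0 of all 15967 genes called, the other fixed lists could give no call either. Over all tested genes, 60.1% lay above 0, with a median of 0.10. Of the 14 heme synthesis and transport genes, 0 passed, 7 lay above and 7 below 0, and the median was −0.04, from Slc25a37 at −0.79 (SE 0.67) and Slc48a1 at −0.75 (SE 0.34) to Pgrmc1 at 0.55 (SE 0.40) and Abcb6 at 0.59 (SE 0.34). Of 6 heme breakdown and scavenging genes tested, 0 passed and 1 lay above 0, Hmox1 at 0.64 (SE 0.33), with a median of −0.04. Of 17 red cell and erythroid genes tested, 0 passed and 14 lay above 0, with a median of 0.36. KO 1 was the highest library for 8 of the 17, and the list was not examined without it. In that list Epb41, the red cell and neuronal protein 4.1 found as Epb4.1, was the single gene without overlap, 1 of 17 where 3.34% of all tested genes had none, at 12.9, 11.9, 45.8 and 46.0 TPM in WT and 59.9, 50.6, 50.8 and 60.4 TPM in KO. Of 12 iron handling genes tested, 0 passed and 5 lay above 0, with a median of −0.06. The ferritin chains in that list split by Mbp, with Fth1 at 1095 TPM in WT 1 and 1484 TPM in WT 2 against 336 to 560 TPM, Ftl1 at 296 and 347 TPM against 977 to 1434 TPM, and Fbxl5, an iron sensor, at 152 and 154 TPM against 115 to 130 TPM.

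The genes most like each target over the 8 libraries were named by Pearson's r of log2(TPM + 1), as a description. For Hbb-bs these were Hbb-b2 (0.978), Nsmce4a (0.973), Eif3m (0.960), Setdb2, Isg20, Sass6, Pcgf1, LOC622552, Immp1l and Eif2a (0.922). Within the 6 libraries of low Mbp, Hbb-b2 was at 0.997. No red cell gene other than Hbb-b2 was among the 10. For Alas1 they were Smad7 (0.997), Pls1, Rgs16, Leprotl1, Chordc1, Deptor, Nr1h2, Prkag1, Sh3bgrl2 and Ndrg1 (0.981), which share with it the high values of WT 1 and WT 2, and their r within the 6 was 0.851 to 0.985. For Slc4a1, 9 of the 10 were Reg3g (0.971), Slc43a1, Rtp1, Aox3l1, E2f2, Fam107b, Bpifa1, Aqp1 and Elf5 (0.948), and without KO 1 their r was 0.591 to 0.873.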

How the data were processed

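The authors deposited 1 table of gene TPM for 8 libraries, per its file and sheet names, with a mean column per group that was not used. The tools BWA and edgeR 3.14.0 and the builds GRCm38 and mm10 appear, without roles, per the submitters' processing notes. The sources used here do not give the annotation or the handling of reads that match several globin copies. Depth is unknown, so no counting interval is given. KO and WT were compared with limma 3.58.1 (R 4.3.3) on log2(TPM + 1), a pseudocount of 1 TPM that understates changes of low genes, over the 15967 genes averaging 1 TPM or more, with trend and robust variances, two-sided, and Benjamini-Hochberg adjustment at 0.05 over all of them. The fit was also run on simulated data with independent noise per gene, which lack the shared shift of WT 1 and WT 2. No test was run on the split by Mbp, which is a measured value. Ratios and sums were formed from TPM within a library. The members and gene lists were chosen with earlier results of these data known. Genes named are all members, all genes of the heme and globin lists, and Mbp, Tnfrsf12a, Xist and Ddx3y. Also named are the 3 of highest mean in each other list and the 10 most correlated with Hbb-bs, Alas1 and Slc4a1. Any others, among them Epb41, S100a9, Ngp, Mpo, Cd3g and Kcne2, were picked with their values in view. A few genes of these lists are not reported here, and list counts leave them out. Names came from the table or RefSeq synonyms, positions from GENCODE M21 and promoters from RefSeq GRCm38.p6. Each mouse gave 1 library. Python 3.11.15, pandas 2.3.3, numpy 2.4.6 and matplotlib 3.10.9 were used.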

Additional observations from a re-analysis of the deposited data

Results flagged for a closer look

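Among 66 gene and group combinations examined for a library far from the other 3 on the log2(TPM + 1) scale, 4 passed Dixon's limit for 4 samples at the 95% level, which chance passes in about 1 of 20 such groups. The gap to the nearest library was 0.873 of the KO range for Hba-a2, 0.842 for Alas2 and 1 for Hba-x, in each case with KO 1 as the highest library. For Hba-x the other 3 KO libraries were listed at 0, so the ratio is 1 for any value above 0 in KO 1 and carries no information on its size. In WT it was 0.875 for Cygb, where WT 1 was lowest. Hbb-bs, Hbb-b2 and Hba-a1, although highest in KO 1, did not pass because the other KO libraries were themselves spread out.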

How the results depend on the processing

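Of the alternatives fitted for the members, array weights alone brought any past the threshold. The fit with Hbb-bs as a covariate left the members out, and the 5 TPM filter left out Slc4a1. Apart from array weights, 0 to 2 genes passed in each direction. Estimated array weights were 0.13 for WT 3 and 0.138 for the library labelled WT 4, and that fit called 6569 genes higher and 3807 lower, with 3 members among them, Hba-a2 (0.94), Alas2 (0.80) and Alas1 (−0.30); the cause was not tested. There Hba-a1 turned to −0.27 and Hbb-bs to −0.12. Without trend and robust variances 1 gene passed as higher, and without both WT 1 and WT 2, 2 genes passed as lower. Leaving out each library in turn gave 0 to 1 genes lower. In the same series Hba-a1 ran from −0.50 to 0.66, Hbb-b2 from −0.079 to 0.93 and Hbb-bs from −0.33 to 0.63, and the lowest value of each was without KO 1. Hba-a1 also turned to −0.13 without WT 3 and to −0.002 without KO 2. Leaving out KO 3 gave the 1 gene called lower. Alas1 was at 0.00278 without WT 1 and WT 2. Without KO 1, WT 1 and WT 2, an alternative added after seeing the data, Hba-a2 was at −0.14, Hbb-bs at −0.046 and Slc4a1 at −0.10. Pseudocounts of 0.1 and 0.5, filters from none to 5 TPM, quantile normalization, median-of-ratios factors and rescaling without the 20 most abundant genes or without the members changed no direction. Quantile normalization moved the median of all genes from 0.10 to 0.00. With the level of Hbb-bs as a covariate, 767 genes lay above and 369 below 0 with an unadjusted p under 0.05, against 851 and 372 without it. With the level of Xist as a covariate these counts were 363 and 203, and the differences were 0.47 for Hba-a2, 0.58 for Slc4a1 and 0.15 for Hbb-bs, each more than 1.5 times smaller. The unadjusted p of Alas2 was 0.0786 with that covariate, 0.0806 with the replicate block and 0.0504 to 0.0529 under the 4 rescalings. A replicate block gave 0 genes in both directions. The deviations of same-numbered libraries correlated at −0.10 to 0.07 and those of other pairs at −0.24 to 0.21. These values cannot show whether the numbers pair the mice.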
